A study of Drosophila melanogaster with 13 samples.

Results

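The transcriptome described here is that of wildtype first instar males of Drosophila melanogaster. Its members are the libraries that the labels call wt, 3 of the 13 libraries of the series, numbered replicates 1, 3 and 4. The series asked how the RNAs *roX1* and *roX2* act in dosage compensation, and it holds 4 libraries of *roX1* mutants, 3 of *roX2* mutants, 3 of *roX1 roX2* mutants and the 3 wildtype libraries. Each library was made from polyadenylated RNA of pooled whole larvae and sequenced in paired ends.

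By the labels, the *roX1* mutants carry the allele *roX1[ex6]* and the *roX1 roX2* mutants *roX1[ex6]* together with *roX2[9-4]*, both on an X with *y[1]* and *w[1118]*. The *roX2* mutants carry *roX2[9-4]* with the markers *cho[2]* and *v[1]* and with *y[1]*, but not *w[1118]*, and the study's methods place *v[1]* on the X of the *roX1 roX2* mutants too. The wildtype strain is *y[1] w[1118]*, so it carries mutant alleles of yellow (*y*) and white (*w*), and *y[1]* is shared by every group. All mothers were crossed to males with the balancer FM7i marked by GFP, and the larvae without GFP, which carry an X of the mother and are male, were collected. By the study's methods, the mothers of the *roX1 roX2* mutants, unlike the others, carried the mutant X over that same balancer. Their larvae without GFP carry the mutant X. The paternal set of autosomes of every larva came from that balancer stock, and the strains were not made isogenic, so differences between the groups can come from the rest of the genome as well. The study's methods call the replicates biological ones. Whether each came from a cross of its own is not given in the sources used here, and p-values measure the spread between these libraries only.

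The first instar is the earliest feeding larval stage of the fly. Most larval tissues, such as muscle, midgut, fat body, trachea and epidermis, are already working at this stage, while the adult structures exist only as small groups of imaginal cells and the testis and the reproductive glands have not matured. Males have a single X chromosome, and the MSL complex, which holds the proteins MSL1, MSL2, MSL3, MLE and MOF and a roX RNA, binds X-linked genes and raises their output relative to a single uncompensated dose.

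Counts on genes were 82769481 in replicate 1, 67107244 in replicate 3 and 60166861 in replicate 4, within the range of 45620194 to 83954893 over the 13 libraries. Replicate 1 had a larger share of fragments that were not counted on a gene, 23.8%, against 14.6% in replicate 3 and 17.3% in replicate 4, and it also stood apart from the other wildtype libraries in its gene levels, as described further below. Results that rest on it are therefore given for each library. Most of the fragments not counted on a gene had no unique alignment. These made up 19.6% of all fragments in replicate 1, 9.49% in replicate 3 and 12.6% in replicate 4. Levels are in TPM, a transcript abundance for which the count of a gene is divided by the summed length of its annotated exons and scaled to the total of the library, so that genes of different length can be compared. The files name 17476 genes, of which 17229 had a name, a position and a length in the annotation used here, and the other 247 held at most 4.15% of the counts on genes of a library and are not analysed here.

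The wildtype larvae expressed most of their protein-coding genes. Of 13733 protein-coding genes of the nucleus, 9792 (71.3%) had a mean of at least 1 TPM over the 3 libraries, and these are called expressed below. The count was 9639 with replicate 1 left out. A mean of at least 10 TPM was reached by 6903 genes, 100 TPM by 980 and 1000 TPM by 141, and 984 genes had no count in any wildtype library. The median expressed gene stood at 18.4, 19.3 and 17.3 TPM in replicates 1, 3 and 4.

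A small number of genes made up much of the RNA. The 100 most abundant genes held 47.6% of TPM in replicate 1, 51.3% in replicate 3 and 53.5% in replicate 4. Transcripts of the mitochondrial genome held 16.0%, 17.5% and 18.6% of TPM in the same order, led by the large ribosomal RNA *mt:lrRNA*, which alone took 7.41%, 9.56% and 10.7% of the counts on genes. This RNA is polyadenylated in mitochondria and passes the selection for poly(A), so the figure describes the libraries and not all ribosomal RNA of the larvae. Among the mitochondrial messengers, *mt:CoI*, a subunit of cytochrome c oxidase, had 13590, 10366 and 10910 TPM.

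Translation was the most abundant function. The 88 cytoplasmic ribosomal protein genes on the list, of which 84 were expressed, held 23.6% to 31.1% of TPM over the mutant libraries, against 24.7% in wildtype replicate 1, 27.3% in replicate 3 and 28.5% in replicate 4. Shares of TPM depend on the division by exon length, since as a share of counts these genes held 14.0% over the wildtype libraries in place of a mean of 26.9%, muscle contractile proteins 5.01% in place of 3.20% and Rebers-Riddiford cuticle proteins 0.548% in place of 1.56%. Of the 15 most abundant nuclear protein-coding genes, 13 encode ribosomal proteins or their fusions with ubiquitin, and the other 2 are muscle genes. *RpL41*, which encodes a very short basic protein of the large subunit (chromosome 2R, 24903416 to 24903935, release 6), had 14978, 15517 and 17086 TPM. *RpL39* had 7352, 7514 and 7794 TPM, and *RpLP2*, the acidic stalk protein P2, had 5790, 6526 and 6948 TPM. *RpL41* has an exon length of only 320 bp, and its TPM rests on that length.

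The factors that work with the ribosome followed at lower levels. Translation factors held 1.27%, 1.45% and 1.38% of TPM, led by *eEF2*, the elongation factor that moves the ribosome along the messenger, at 2549, 3256 and 2978 TPM. The 73 mitochondrial ribosomal protein genes, 72 of them expressed, held only 0.381%, 0.466% and 0.483%. Aminoacyl-tRNA synthetases, 17 of 17 expressed, held 0.0707%, 0.0766% and 0.0707%, so the enzymes that charge tRNAs were far below the ribosomal proteins as a group.

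**Figure D1:**
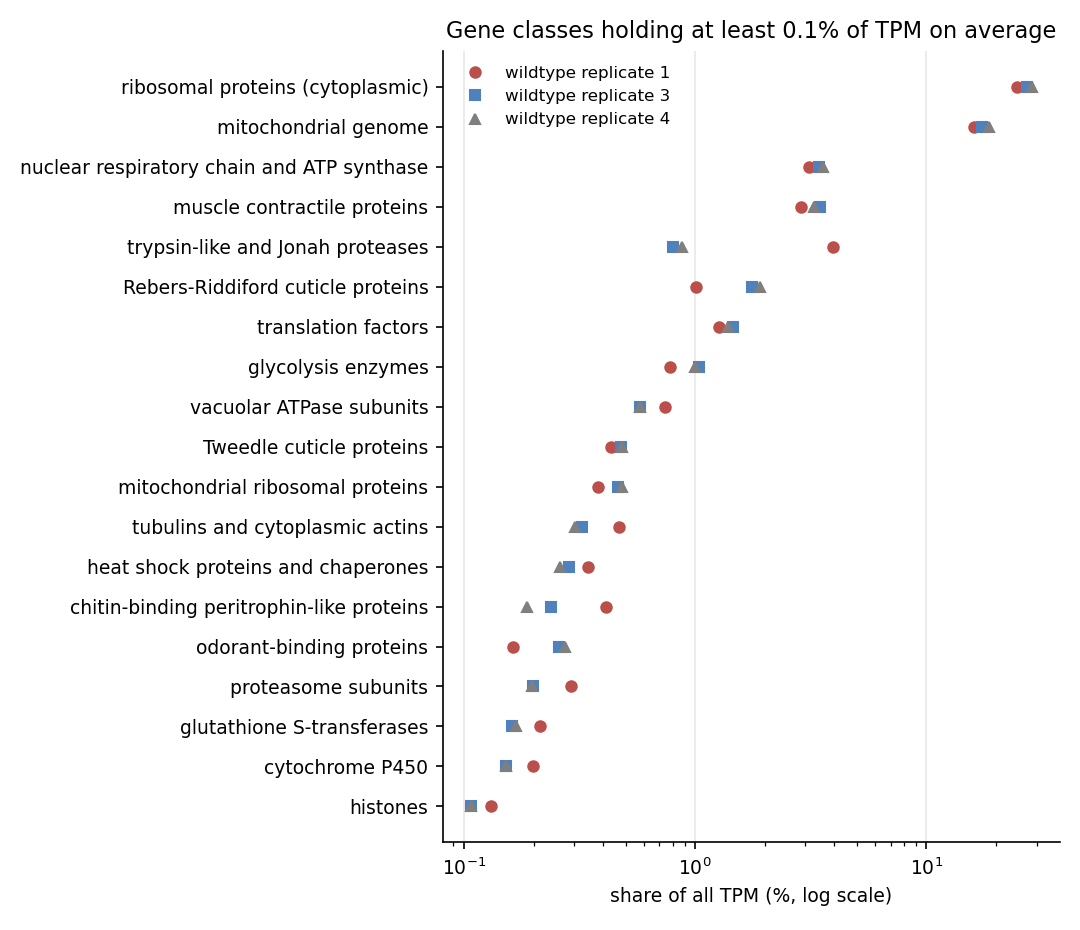
Share of all TPM (%, log scale) held by each gene class in wildtype replicates 1 (circles), 3 (squares) and 4 (triangles), for classes with a mean share of at least 0.1%. Cytoplasmic ribosomal proteins and the mitochondrial genome lead in each library, and trypsin-like and Jonah proteases show the widest gap, 3.95% in replicate 1 against 0.801% and 0.878% in replicates 3 and 4.

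Energy metabolism came next. Nuclear genes of the respiratory chain and ATP synthase, 70 of 93 expressed, held 3.12%, 3.43% and 3.56% of TPM. *ATPsynC*, the membrane ring of ATP synthase, had 2239, 2331 and 2404 TPM, and *ATPsynbeta*, its catalytic subunit on chromosome 4, had 1982, 2004 and 1994 TPM, with little spread between the libraries. The 13 glycolysis genes on the list were all expressed and held 0.778%, 1.04% and 1.00%. *Gapdh1* had 1715, 2180 and 2176 TPM, and its X-linked duplicate *Gapdh2* had 1161, 1480 and 1418 TPM, so that both copies of this glycolytic enzyme ranked among the abundant messengers. *Ldh*, lactate dehydrogenase, had 333, 507 and 461 TPM. Subunits of the vacuolar ATPase, the proton pump of acidic organelles and of many epithelia, held 0.740%, 0.578% and 0.577%.

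Muscle genes were abundant in each library. Contractile protein genes, 22 of 25 expressed, held 1.79% to 3.31% of TPM over the mutant libraries, against 2.87% in wildtype replicate 1, 3.45% in replicate 3 and 3.28% in replicate 4. *Act57B*, a muscle actin used in larvae, had 10157, 12147 and 11073 TPM and was the second most abundant nuclear protein-coding gene. The myosin light chains *Mlc2* and *Mlc1* had 4394, 5062 and 5074 TPM and 2491, 2805 and 2864 TPM. The X-linked genes *up* (troponin T) and *wupA* (troponin I) had 2150, 2585 and 2414 TPM and 1420, 1674 and 1664 TPM. The genes of indirect flight muscle, a muscle of the adult, were low in comparison, since *Act88F* had 0.448, 0.384 and 0.455 TPM and *fln* (flightin) 0.220, 0.267 and 0.279 TPM.

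The outer surface of the larva and its airways were also prominent. Cuticle proteins of the Rebers-Riddiford family, which bind chitin, held 1.01% of TPM in replicate 1, 1.77% in replicate 3 and 1.91% in replicate 4, with 69 of 99 members expressed. *Cpr47Eg* led them with 2046, 4790 and 5143 TPM, followed by *Lcp65Ag3* with 2061, 4429 and 4826 TPM, a gene whose counts could be too low, since it has close copies beside it. Both were lower in replicate 1 than in the other libraries. Tweedle cuticle proteins held 0.434%, 0.480% and 0.483%. Of the tracheal genes, *verm* and *serp*, which modify the chitin of the airways, had 274, 480 and 442 TPM and 124, 220 and 196 TPM, and the transcription factor *trh*, which specifies trachea in the embryo, had 11.6, 17.0 and 14.4 TPM.

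Digestive enzymes marked the midgut. Trypsin-like and Jonah serine proteases, 29 of 32 expressed, held 3.95% of TPM in replicate 1, 0.801% in replicate 3 and 0.878% in replicate 4. *Jon65Aiv* had 6547, 1617 and 1514 TPM, *yip7* 5088, 933 and 917 TPM, and *Jon99Cii* 4066, 682 and 795 TPM. Lysozymes, which in flies serve largely in digesting bacteria in the gut, held 0.0827%, 0.0271% and 0.0290%, and enzymes that digest sugars and starch held 0.0452%, 0.0103% and 0.0129%. All of these were higher in replicate 1, so a mean over the 3 libraries describes none of them well.

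Markers of the other larval tissues were present at moderate levels. In bulk RNA of whole larvae, fewer cells of a type and less RNA per cell cannot be told apart. The 10 neuronal markers were all expressed, with a summed level of 499, 707 and 504 TPM, and among them *nSyb*, a synaptic vesicle protein, had 114, 159 and 117 TPM and *elav*, an RNA-binding protein of neurons, 19.1, 20.4 and 15.3 TPM. Of 8 glial markers 7 were expressed, with *repo*, the glial transcription factor, at 12.4, 15.5 and 11.7 TPM. Of 10 fat body markers 6 were expressed, led by the desaturase *Desat1* with 1379, 985 and 1022 TPM, while the lipid carrier *apolpp* had 218, 252 and 260 TPM. Of 12 hemocyte markers 11 were expressed, and their summed level was 462 TPM in replicate 1, 977 TPM in replicate 3 and 936 TPM in replicate 4. In the last list *Col4a1* and *vkg*, the collagen IV chains that hemocytes and fat body secrete, led with 252, 537 and 509 TPM and 136, 308 and 292 TPM, and the blood cell protein *Hml* had 6.73, 12.5 and 12.8 TPM. Replicate 1 was lowest in each of these 3 hemocyte genes.

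Markers of smaller organs were low but measurable. *Cyp4g1*, the oenocyte enzyme that makes hydrocarbons of the cuticle, had 138, 146 and 141 TPM. In the heart list, *prc*, a collagen-like matrix protein, had 74.2, 234 and 218 TPM, *Hand*, a transcription factor of heart cells, 25.2, 16.4 and 18.5 TPM, and *tin*, whose role is in the early cardiac mesoderm, 0.282, 0.817 and 0.553 TPM. In the ring gland list, 4 of 6 genes were expressed, led by *Akh*, the adipokinetic hormone, with 23.7, 29.3 and 30.3 TPM. Of its ecdysone-synthesis genes, *spok* had 4.61, 3.18 and 3.71 TPM and *sro* 0.938, 1.59 and 1.52 TPM. The ecdysone-synthesis gene *dib* had 0.0310, 0.0540 and 0.0141 TPM. Of 9 imaginal disc genes all were expressed at low levels, for example *dpp* with 12.8, 18.0 and 20.0 TPM and vg with 1.70, 2.31 and 1.88 TPM, and both genes also act outside discs. *Rh6*, an opsin found in the larval as well as the adult eye, had 38.1, 49.8 and 48.3 TPM, and *ninaE*, the main opsin of the adult eye, had 0.0900, 0.252 and 0.299 TPM.

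Genes of later stages and of mature reproductive organs were near zero. None of 6 genes on the larval serum protein list, which also holds *Fbp2*, was expressed, and their summed level was 1.33, 0.513 and 0.270 TPM. Larval serum proteins are storage proteins made by the fat body of the last larval instar. In the salivary gland list the glue genes *Sgs1*, *Sgs3*, *Sgs4*, *Sgs5*, *Sgs7* and *Sgs8*, which act at pupariation, were at most 1.27 TPM in any library, while *fkh*, a transcription factor of the gland, had 21.5, 22.2 and 20.0 TPM. None of 8 male accessory gland genes and none of 8 Y-linked fertility genes was expressed, with summed levels of at most 0.270 TPM and 0.0871 TPM. Of 13 testis genes 3 were expressed, among them *bol* with 20.2, 26.0 and 19.8 TPM, and *Mst84Da*, *Mst84Db* and *Mst84Dc* had no count. Germline genes were present, *vas* with 6.76, 11.1 and 9.70 TPM and *piwi* with 11.2, 12.4 and 11.9 TPM. The yolk and eggshell genes, a mark of adult females, summed to 2.66, 2.29 and 2.40 TPM, and none was expressed.

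The genes of the MSL complex were expressed at modest levels, apart from 1 of the RNAs. *roX1* (X, 3857230 to 3862697, minus strand) had 341, 349 and 299 TPM, and *roX2* (X, 11579065 to 11580432, plus strand) had 22.3, 32.1 and 31.1 TPM. The groups of values do not overlap, and per length of annotated exon *roX1* was above *roX2* in each library. The helicase *mle* had 23.2, 31.8 and 25.8 TPM, *msl-3* 16.4, 22.9 and 19.0 TPM, *msl-2*, the male-specific subunit, 16.8, 20.7 and 17.2 TPM, *msl-1* 13.6, 12.8 and 9.70 TPM, and *mof*, the acetyltransferase for lysine 16 of histone H4, 8.92, 8.12 and 8.40 TPM. The 5 protein genes thus lay near the median of expressed genes or below it, except that *mle* exceeded that median in each library.

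The sex determination genes were also measured. *Sxl*, the switch gene whose functional protein is made in females only, had 38.5, 44.6 and 36.2 TPM. Males transcribe *Sxl* with an exon that stops translation, and counts per gene do not separate the forms. *tra2* had 19.8, 20.5 and 19.9 TPM, *tra* 8.17, 6.65 and 7.31 TPM and *fru* 10.3, 11.1 and 9.08 TPM, while *dsx* averaged 0.385 TPM. The yolk protein genes *Yp1*, *Yp2* and *Yp3*, which are made in females, were at most 1.29 TPM. The gene *w* had 0.102 to 21.8 TPM over the mutant libraries, against 0.252, 0.816 and 0.652 TPM in wildtype, whose allele *w[1118]* is a partial deletion. The *roX1* and *roX1 roX2* mutants share *w[1118]* and the *roX2* mutants do not, so this is not a contrast of wildtype with all mutants. The gene *y*, whose allele changes the start codon, had 5.10, 4.71 and 3.94 TPM in wildtype.

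Some noncoding RNAs were abundant. *lncRNA:CR42862* on chromosome 3L had 1503, 2892 and 2272 TPM, more than any other long noncoding RNA. *roX1* followed it, and then *lncRNA:mimi* with 84.5, 193 and 163 TPM, *lncRNA:CR46123* with 43.9, 66.7 and 59.6 TPM and the X-linked *lncRNA:CR34335* with 72.7, 42.4 and 44.4 TPM. The first, the mimi and the CR46123 RNAs were lowest in replicate 1, and CR34335 was highest there. Of 115 histone genes on the list, 110 had no count, and the 4 expressed ones were the variants *His4r*, His3.3B, His3.3A and *His2Av*, led by *His4r* with 776, 640 and 663 TPM. The replication-dependent histone genes lie in a repeated cluster and their messengers lack poly(A), and neither the repeats nor the selection was tested as the reason.

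Genes of detoxification, protein folding and small-molecule binding were widely expressed. Of 84 cytochrome P450 genes 59 were expressed and held 0.199%, 0.152% and 0.152% of TPM, and of 35 glutathione S-transferases 34 were, with 0.213%, 0.161% and 0.168%, led by *GstD1* with 520, 379 and 403 TPM. The P450 gene *Cyp6a2* had 21.5 to 64.1 TPM over the mutant libraries, against 219, 76.7 and 86.1 TPM in wildtype. This difference was noticed among the values and not tested. How many genes separate wildtype from mutant libraries in this way was not counted, so nothing is concluded from it. Of 51 odorant-binding proteins, small carriers of the body fluids and sense organs, 24 were expressed, led by *Obp44a* with 139, 500 and 474 TPM and *Obp28a* with 219, 393 and 469 TPM. The constitutive chaperone *Hsc70-4* had 2123, 1964 and 1757 TPM, whereas the heat-inducible gene *Hsp70Aa* was at most 0.794 TPM in any library of the mutants and had 0.0171, 0.0336 and 0.0234 TPM in wildtype. Fragments without a unique alignment were not counted, so a low value of a gene with close copies, such as *Hsp70Aa*, need not mean that it was silent. Antimicrobial peptides were low, with 8 of 23 expressed and a summed level of 29.4, 38.6 and 50.1 TPM.

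The X chromosome was expressed at nearly the level of the autosomes. With 1557 expressed X-linked and 8156 expressed genes of 2L, 2R, 3L and 3R, *w* and 5 genes upstream of it left out, the median level was 17.3 TPM on X and 18.5 TPM on the autosome arms in replicate 1, 18.5 and 19.3 TPM in replicate 3, and 15.9 and 17.4 TPM in replicate 4. The X:A ratio, the quotient of these medians, was 0.936, 0.958 and 0.910, or 0.935 ± 0.0237 (SD, n = 3). It was below 1 in each library, and 0.937 without replicate 1. The same quotient of each autosome arm over the other 3 was 0.991 for 2L, 1.03 for 2R, 1.02 for 3L and 0.967 for 3R, so X lay below each of the 4 arms.

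The ratio depended on the part of the distribution that was compared. At the 10th percentile of expressed genes X stood above the arms with a ratio of 1.11 ± 0.0332, at the 25th at 0.999 ± 0.0286, at the 75th at 0.891 ± 0.0150 and at the 90th at 0.876 ± 0.0360 (SD, n = 3 each). Low X-linked genes were thus at or above the level of low autosomal genes, and high X-linked genes were below high autosomal ones. The ratio was also 0.895 when only genes with at least 5 TPM were kept, 1.01 for all genes with a count, and 1.17 when counts were not divided by exon length. The expressed X-linked genes had a median exon length of 2358 bp, against 1980 bp on the autosome arms, and the value of the ratio rests on that division.

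**Figure D2:**
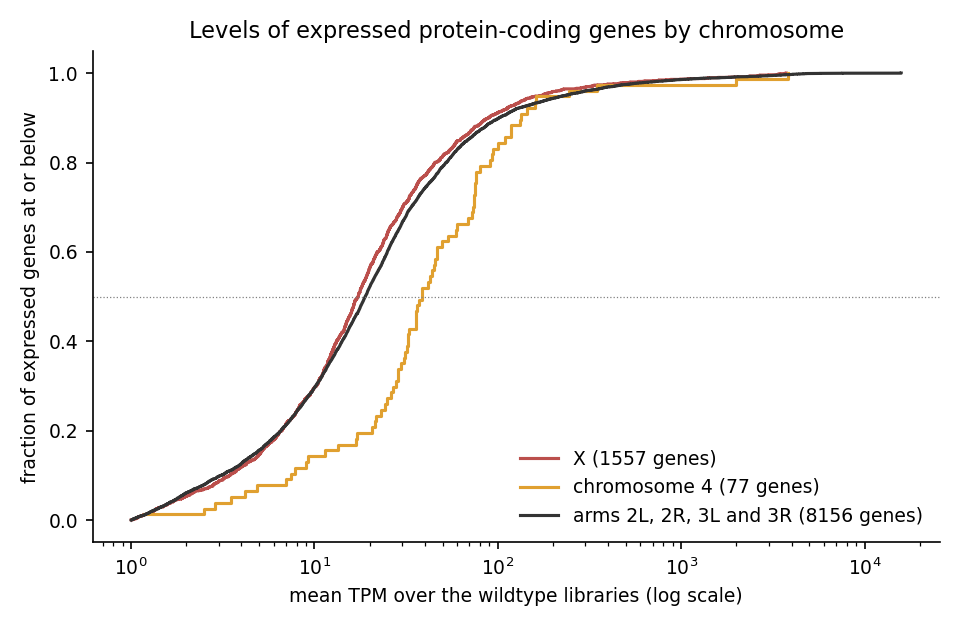
Cumulative share of expressed protein-coding genes at or below a given mean TPM (log scale) over the 3 wildtype libraries, for X (red), chromosome 4 (yellow) and the arms 2L, 2R, 3L and 3R (black). The X curve crosses that of the arms and lies to its left around and above the median, and the curve of the 77 genes of chromosome 4 lies to the right of both at the median.

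X held 15.9% of the expressed protein-coding genes and 13.3%, 13.6% and 13.5% of the TPM of protein-coding genes. None of the 15 most abundant nuclear protein-coding genes is X-linked. The first X-linked ones were *sesB*, the mitochondrial ADP/ATP translocase, with 3341, 3951 and 3927 TPM, *RpL7A* with 3346, 3830 and 3904 TPM and *RpL36* with 3288, 3475 and 3708 TPM. The annotated span of *sesB* overlaps that of *Ant2*, a second translocase gene with 4.06, 4.38 and 3.75 TPM. Fragments in the shared part may have gone uncounted, so both levels are uncertain. Along X, in 10 bins of equal width, the ratio to the autosome arms was lowest in the second bin (2329173 to 4658345), with 0.748, 0.697 and 0.646 over 125 genes, and highest in the last, with 1.13, 1.04 and 1.04 over 58 genes. The other 8 bins lay between 0.865 and 1.02.

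Chromosome 4, a short and largely heterochromatic autosome whose genes are bound by the protein POF, stood out by its median. Of its 79 protein-coding genes 77 were expressed (97.5%), against 72.9% on X and 65.3% to 73.0% on the major arms. The median level of the expressed genes was 37.8, 43.4 and 34.7 TPM, and its ratio to the major arms was 2.04, 2.25 and 1.99, or 2.09 ± 0.137 (SD, n = 3). It was 2.08 without replicate 1. *RpS3A* led with 3704, 3892 and 3948 TPM, followed by *ATPsynbeta* and by *ND-49*, a subunit of respiratory complex I, with 320, 368 and 347 TPM. The genes of this chromosome are long, with a median exon length of 4376 bp, and without division by length the ratio was 4.01. On the Y chromosome 1 of 23 protein-coding genes was expressed, *FDY*, with 8.67, 5.89 and 6.82 TPM. *FDY* arose as a copy of *vig2* on 3R, which had 136, 138 and 135 TPM. Fragments that align equally well to both were not counted, and others may have been assigned to the wrong copy.

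Groups of genes of like function allow their X-linked and autosomal members to be compared, although members of a group need not be made in equal amounts. Among cytoplasmic ribosomal proteins, the median of 14 X-linked genes over that of 69 autosomal ones was 0.783, 0.764 and 0.777, or 0.775 ± 0.00976 (SD, n = 3). The X-linked members ranged between 1086 TPM (*RpL22*) and 3693 TPM (*RpL7A*), while the autosomal ones ranged between 5.96 and 15861 TPM. The low end of the autosomal range holds second copies such as *RpL37-2*, *RpS10a* and *RpS19b*, with means of 5.96, 8.05 and 10.8 TPM, and as a mean of log2 TPM over members the ratio was 1.25, in the opposite direction. For the members with at least 100 TPM, 14 on X and 63 on the arms, the ratio was 0.752 by medians and 0.803 by the mean of log2 TPM. The X-linked *RpS14a* and *RpS14b* lie side by side and are nearly identical. Their values of 2174, 2367 and 2431 TPM and 1423, 1338 and 1446 TPM may be too low, since fragments without a unique alignment were not counted.

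The other groups differed among themselves. For nuclear genes of the respiratory chain and ATP synthase, 10 on X and 58 on the arms, the ratio was 0.582, 0.562 and 0.585, and *COX6B*, the highest X-linked member, had 720, 748 and 796 TPM. For mitochondrial ribosomal proteins, with 12 and 60 genes, it was 1.17, 1.03 and 1.01, and for proteasome subunits, with 4 and 29 genes, 0.865, 0.866 and 0.822. For aminoacyl-tRNA synthetases, with 3 X-linked genes, *LysRS*, *HisRS* and *ArgRS*, it was 0.999, 1.27 and 1.30. The vacuolar ATPase has a single X-linked member on the list, *Vha36-3*, with 37.1, 64.8 and 60.3 TPM, and its ratio rests on that gene alone. These are descriptions without a test, since genes of a group are not replicates.

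**Figure D3:**
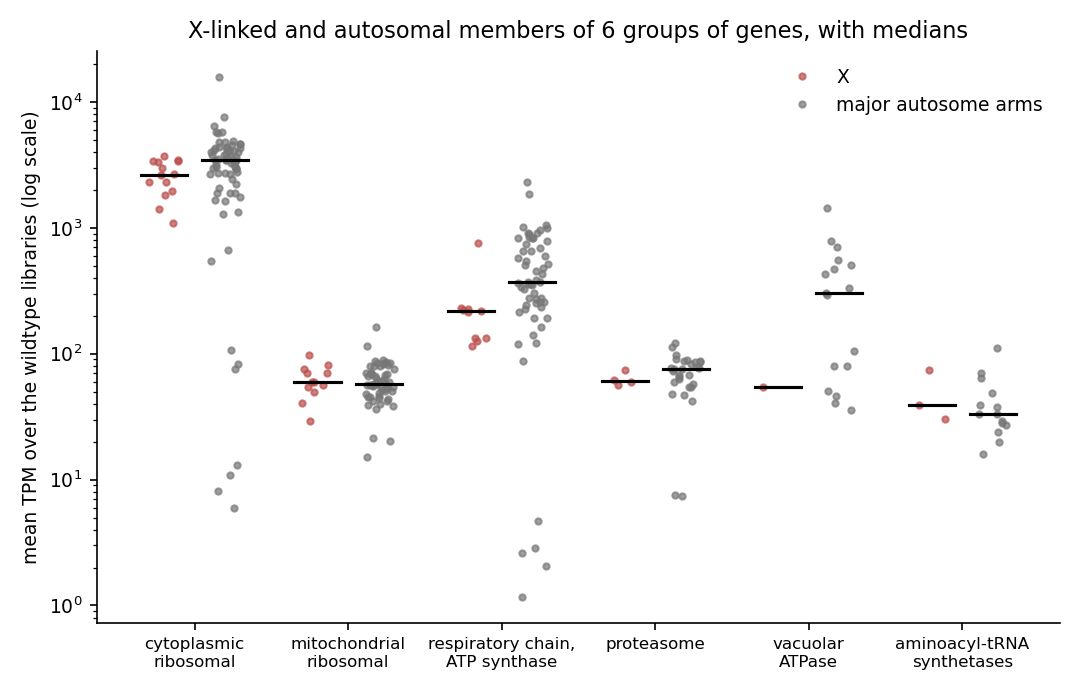
Mean TPM over the 3 wildtype libraries (log scale) of each expressed member of 6 groups of genes, X-linked members in red on the left and members on 2L, 2R, 3L and 3R in grey on the right, with black lines at the medians. The X-linked ribosomal proteins span a narrower range than the autosomal ones, and the medians of mitochondrial ribosomal proteins lie side by side.

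The X:A ratio of the mutants was set against that of wildtype over a common set of 1562 X-linked and 8283 autosomal genes with a mean of at least 1 TPM over all 13 libraries. The *roX1* mutants had ratios of 0.924, 0.930, 0.921 and 0.901, the *roX2* mutants 0.933, 1.06 and 0.937, the *roX1 roX2* mutants 0.656, 0.658 and 0.639, and the wildtype libraries 0.949, 0.970 and 0.924. All *roX1 roX2* libraries thus lay below every wildtype library, the *roX1* libraries reached into the wildtype range at its low end, and of the *roX2* libraries 2 lay within it and 1 above it. The log2 difference from wildtype was -0.54 for *roX1 roX2* mutants (exact two-sided permutation test over libraries, p = 0.1, adjusted p = 0.15 over the 3 comparisons), and 0.1 is the smallest p that 3 libraries against 3 allow. It was -0.044 for *roX1* mutants (exact permutation test, p = 0.0857, adjusted p = 0.15) and 0.043 for *roX2* mutants (exact permutation test, p = 0.8, adjusted p = 0.8). The *roX2* difference had the opposite sign, -0.018, without replicate 3 of the *roX2* mutants. The 3 comparisons share the wildtype libraries.

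**Figure D4:**
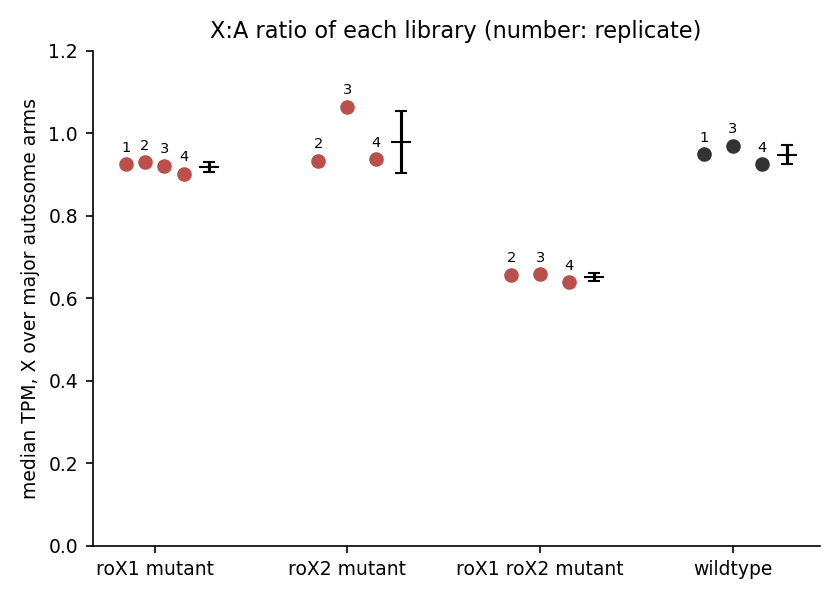
X:A ratio, the median TPM of expressed X-linked genes over that of genes of 2L, 2R, 3L and 3R, in each library of the roX1, roX2 and roX1 roX2 mutants (red) and of wildtype (black), with replicate numbers above the points and the mean and SD to their right. The roX1 roX2 libraries sit between 0.639 and 0.658, below all others, and the wildtype libraries between 0.924 and 0.970.

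The wildtype libraries did not resemble each other equally. Over the 9792 expressed genes, the median absolute log2 difference of library-scaled counts (TMM) was 0.30 between replicates 1 and 3, 0.27 between 1 and 4 and 0.14 between 3 and 4. A difference of at least 4-fold was found for 576 genes (5.88%) between replicates 1 and 3, for 513 (5.24%) between 1 and 4 and for 9 (0.0919%) between 3 and 4. Replicates 3 and 4 were still far more different than counting error gives, with a chi-square of 57.7 per degree of freedom, against 669 and 604 for the pairs with replicate 1, so none of the libraries is a second deposit of another.

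The genes that set replicate 1 apart were mostly higher there. It held 448 genes at least 4-fold above both other libraries, 55 of them X-linked, or 4.58% of the 9792 tested, and 29 (0.296%) at least 4-fold below both, 2 of them X-linked. X-linked genes made up 15.9% of all expressed genes. Replicate 3 held 0 above and 6 below, and replicate 4 held 0 above and 1 below. Some of the 448 genes passed the filter on low values only through replicate 1, and with the mean of at least 1 TPM taken over replicates 3 and 4 the counts were 283 above (2.94% of 9639) and 30 below (0.311%). With that mean taken over the 10 mutant libraries they were 471 above (4.73% of 9957) and 30 below (0.301%). The Osiris genes, a cluster on 3R of membrane proteins that are made in cuticle-secreting cells, were among the genes furthest apart, and only 4 of the 22 on the list had a mean of at least 1 TPM over replicates 3 and 4. *Osi6* (3R, 6234708 to 6237181) had 624 TPM in replicate 1 and 1.37 and 1.28 TPM in the others, and *Osi15* had 177, 0.195 and 0.0679 TPM. The summed level of the Osiris genes was 8422 and 8229 TPM in replicates 1 and 2 of the *roX1* mutants, 815 TPM in replicate 4 of the *roX2* mutants and 24.2 to 38.8 TPM in the other 7 mutant libraries, against 1464 TPM in wildtype replicate 1 and 26.4 and 25.7 TPM in wildtype replicates 3 and 4.

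Some other genes of cuticle and gut were also higher in replicate 1. Of the genes with a mean of at least 1 TPM over replicates 3 and 4, 6 of 15 Tweedle genes, 11 of 63 Rebers-Riddiford genes, 16 of 29 trypsin-like and Jonah proteases, 5 of 13 enzymes that digest carbohydrates and 5 of 9 midgut markers were at least 4-fold higher in replicate 1 than in both other libraries, against 2.94% of all such genes. The midgut markers include proteases such as *Jon65Aiv*, which is on both lists, so these counts are not separate from each other. The protease sum was 39495 TPM in wildtype replicate 1. It was 12112, 12422, 6344 and 7080 TPM in *roX1* replicates 1 to 4, of which replicates 1 and 2 had the highest Osiris levels. Its highest mutant value, 25721 TPM, was in *roX1 roX2* replicate 4, where the Osiris genes had 31.0 TPM. Within the Tweedle family *TwdlL* had 494, 65.6 and 63.6 TPM, whereas *TwdlO* had 646, 1383 and 1394 TPM, so the members moved in different directions. The genes of unknown function *CG13445*, with 498, 0.124 and 0.0647 TPM, and *CG15225*, with 149 TPM in replicate 1 and no count in the others, were among those furthest apart. The actin gene *Act5C*, used in most cells, had 2350, 951 and 913 TPM. On the low side, the antimicrobial peptide gene *Mtk* had 1.98 TPM in replicate 1 and 19.8 and 21.4 TPM in the others, and the cuticle gene *Lcp3* 11.4, 86.3 and 129 TPM.

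**Figure D5:**
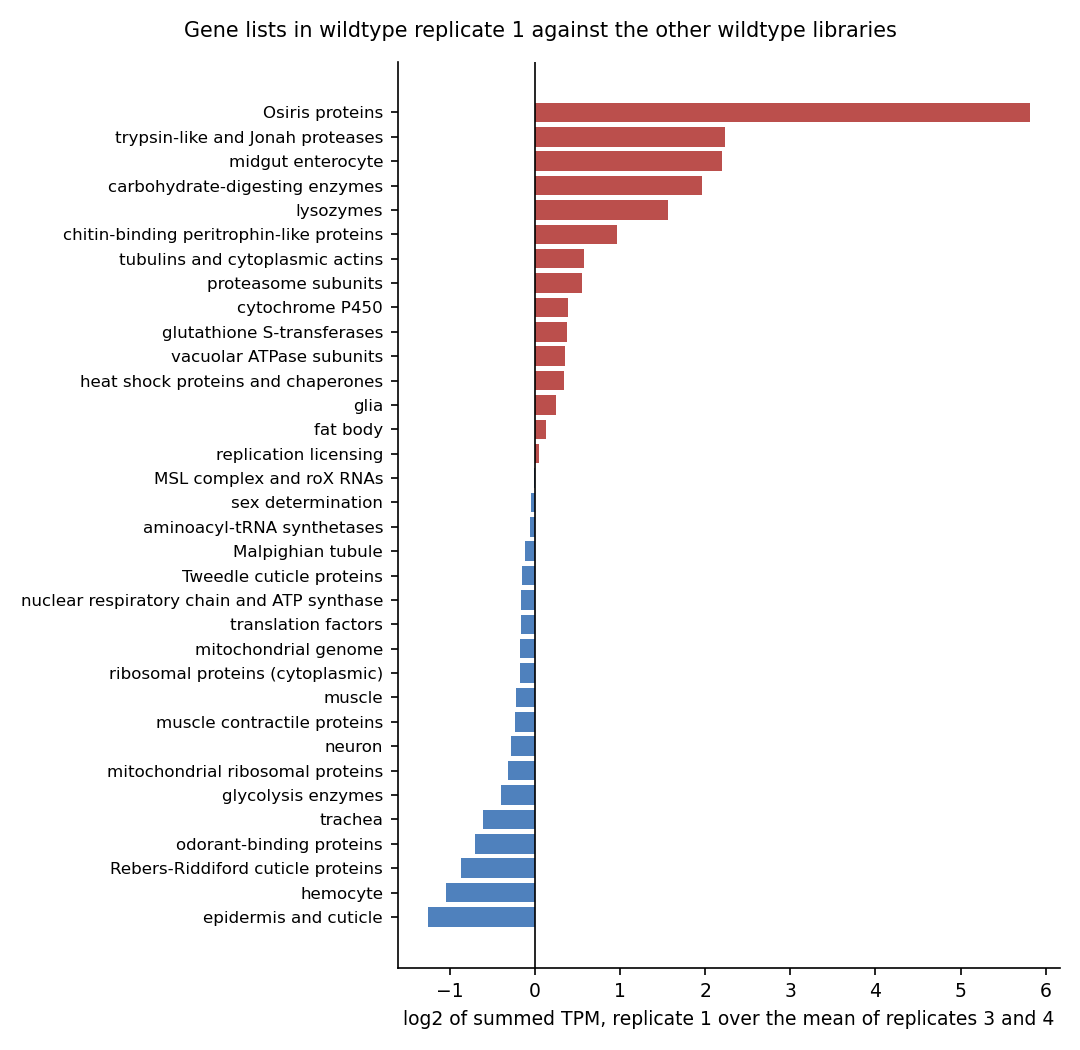
Log2 of the summed TPM of each gene list in wildtype replicate 1 over the mean of replicates 3 and 4, for lists with at least 5 expressed members and a mean summed level of at least 100 TPM. Osiris proteins stand furthest to the right at 5.81, followed by trypsin-like and Jonah proteases at 2.23, and the epidermis and cuticle list stands furthest to the left at -1.26. The filters include replicate 1, and the Osiris list passed them only through it, with sums of 26.4 and 25.7 TPM in replicates 3 and 4.

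Several lists differed little in summed level between replicate 1 and the others. The summed level of the MSL and roX genes in replicate 1 over the other 2 libraries was 0.996, that of the sex determination genes 0.972, that of aminoacyl-tRNA synthetases 0.961 and that of cytoplasmic ribosomal proteins 0.887. The MSL and roX sum, 443 TPM on average, is mostly *roX1*, with a mean of 330 TPM. Its members went both ways. In replicate 1 *roX2* was lowest, with 22.3 TPM against 32.1 and 31.1 TPM, and *msl-1* was highest, with 13.6 TPM against 12.8 and 9.70 TPM. The X:A ratio of replicate 1, 0.936, lay between those of the other libraries, and without all cuticle, Osiris, Tweedle and protease genes the wildtype mean was 0.935, as with them. Replicate 1 also had the largest share of fragments that were not counted on a gene among the wildtype libraries. The part of that share in the differences from the other libraries was not tested. In the mutant libraries with high Osiris levels the share was 14.0% and 13.9% (*roX1* replicates 1 and 2) and 13.8% (*roX2* replicate 4). It was 18.7% in replicate 3 of the *roX2* and of the *roX1 roX2* mutants, with Osiris levels of 34.6 and 33.1 TPM.

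A few genes differed between replicates 3 and 4. *CycB*, the mitotic cyclin B, had 2.16 to 3.77 TPM over the 10 mutant libraries, against 8.29 TPM in wildtype replicate 1, 19.7 TPM in replicate 3 and 2.78 TPM in replicate 4. The mucin-like gene *Muc55B* had 141, 5.53 and 23.0 TPM and *Muc96D* 2292, 615 and 218 TPM. *CG6296* had 495, 14.3 and 35.5 TPM and *CG10182* 326, 12.4 and 29.8 TPM. These genes were highest in replicate 1, and *CycB* was the exception with its highest level in replicate 3.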

How the data were processed

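Polyadenylated RNA of pooled first instar male larvae was sequenced in paired ends. The authors mapped the reads with STAR (2.5.1b, release 6 genome) and counted them per gene with HTSeq (0.6.1, default settings, strand option not given in the sources used here), and deposited raw counts without normalization. All 13 tables were used, and groups came from the labels. The Ensembl annotation of the same assembly release supplied names, positions and lengths. Reads from overlapping genes on opposite strands cannot be told apart if strand was ignored.

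TPM were computed from the counts and union exon lengths with Python 3.11.15, pandas 2.3.3 and numpy 2.4.6. Shares of counts, without division by length, were an alternative. X:A ratios are quotients of medians over expressed protein-coding genes, compared over libraries by exact two-sided permutation tests on the log2 scale with Benjamini-Hochberg adjustment over 3 comparisons (scipy 1.17.1). Replicates were compared as counts scaled to library size by TMM (edgeR 4.0.16, R 4.3.3), with DESeq2 1.42.0 size factors as an alternative. No test was run across genes. Deviations from group means correlated at 0.601, 0.505 and 0.611 between roX1 and wildtype libraries of the same replicate number (1, 3 and 4). Some libraries of unlike numbers correlated about as much, at 0.594 (wildtype 1, roX1 2), 0.515 (wildtype 3, roX1 4) and 0.596 (wildtype 4, roX1 3). Replicate numbers thus did not single out pairs. They did not pair the roX2 (0.340 and -0.182) or roX1 roX2 (0.470 and -0.126) libraries either.

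Named genes were the 15 most abundant nuclear protein-coding genes, the next 10 on X, the top 3 of each list, all MSL, roX and sex determination genes, w and y, 5 noncoding RNAs, X-linked members of the gene groups and up to 5 genes per library that stood apart; a few others were chosen after their values were seen. Members and lists were chosen with earlier results of these data known.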

Additional observations from a re-analysis of the deposited data

How the results depend on the processing

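The wildtype X:A ratio of 0.935 was 0.895 for genes with a mean of at least 5 TPM, 1.01 with no filter and 1.17 without division by length, and 0.921 to 0.942 with 1 wildtype library left out. The chromosome 4 ratio of 2.09 was 1.83 with at least 5 TPM, 3.82 with no filter and 4.01 without division by length, and 2.06 to 2.15 with 1 library left out (alternatives chosen after seeing the data, as were the ribosomal and respiratory members with at least 100 TPM and the leave-one-out counts of expressed genes, 9639 to 9798). Against wildtype, the log2 difference of the roX1 roX2 mutants ranged between -0.56 and -0.52 and that of the roX1 mutants between -0.064 and -0.028 with 1 library left out, and that of the roX2 mutants between -0.018 and 0.077. The value without roX2 replicate 3, -0.018, was the only change of sign. With no filter the roX1 difference was -0.083 (exact permutation test, p = 0.0286, the smallest possible, adjusted p = 0.0857). With a replicate block the 3 differences were -0.55 (roX1 roX2), -0.050 (roX1) and 0.077 (roX2), with exact sign-flip p of 0.5, 0.25 and 0.5, the smallest that 2, 3 and 2 pairs allow, so these p-values say nothing of stability. The ribosomal protein ratio changed sides of 1 by the mean of log2 TPM (1.25), and the proteasome ratio did too (1.01); that of respiratory genes stayed below (0.735). Genes 4-fold apart between replicates 3 and 4 numbered 19 with DESeq2 size factors in place of 9, and at least 2-fold apart 119, against 1189 and 1164 for the pairs with replicate 1. Without replicate 1, the trypsin-like and Jonah share was 0.839% in place of 1.88% and the Osiris share 0.00261% in place of 0.0505%. As shares of counts in place of TPM, 42 of 51 list shares moved by more than 1 SD between the wildtype libraries, and 30 did as shares over nuclear protein-coding genes. The genes 4-fold above both other libraries in replicate 1 numbered 283 in place of 448 with the low-value filter on replicates 3 and 4 (chosen after seeing the data). The planned description of core promoter motifs was not run. Depth limits levels far below 1 TPM, where genes rest on few counts.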
